A study of Mus musculus with 2 samples.

Results

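Nrp2 and Zfp608 are 2 mouse genes, on chromosomes 1 and 18, over which CpG methylation in the hippocampus was lower in a library from arsenic-exposed mice than in a control library. They were chosen because of that loss. The differences between the libraries at these loci are therefore the values that picked them, and are given below as a description with no test. Each locus was taken as a 1-megabase window of the mm9 build, chr1:62000001-63000000 for Nrp2 and chr18:55000001-56000000 for Zfp608. The genes themselves lie at about chr1:62745000-62870000 and chr18:55040000-55160000, called the gene spans here. A cytosine was analysed where it had at least 10 reads in both libraries. This left 1165 cytosines in both windows of 2312276 in the genome, 616 around Nrp2 and 549 around Zfp608. The gene spans held 482 and 283 of them. The flank, up to 50 kb on each side of a span, held 62 and 75, and the rest of the windows 72 and 191. Exons, introns and UTRs of mm9 were not used here.

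The study measured hippocampal DNA of C57BL/6 mice by bisulfite sequencing after capture with a mouse methylation panel (SureSelect Methyl-Seq). Bisulfite turns unmethylated C into a base read as T, so the share of C among C and T calls is the methylation level. The control group was untreated and gave 1 library. The ATO group had arsenic trioxide in the drinking water at 5000 ppb, given from before mating through lactation and then to the offspring after weaning, and also gave 1 library. The labels give no age, sex or number of animals per library. All differences are ATO minus control, in percentage points, between these 2 libraries, and have no replicate check. Whole hippocampus mixes cell types, so a shift in cell make-up and a change of methylation inside cells cannot be told apart.

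Nrp2 encodes neuropilin 2, a membrane receptor that binds class 3 semaphorins together with plexin co-receptors and also binds vascular endothelial growth factors. In the hippocampus it is known for guiding and pruning axons, including those of the mossy fibres, and for limiting dendritic spines. Zfp608 encodes a zinc finger protein that has been described as a repressor of Rag1 and Rag2 transcription in the thymus, and its role in the hippocampus is little known. In most genes the CpG-dense DNA at the start is unmethylated, the transcribed body is methylated, and CpG-poor stretches of intermediate methylation are often distal regulatory elements. In the RefSeq gene order the nearest protein-coding neighbours are Pard3b and Ino80d for Nrp2, and Csnk1g3 and Gramd3 for Zfp608. The noncoding genes Gm29083 and 4930487H11Rik overlap Nrp2, and Gm4221 overlaps Zfp608.

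The start of Nrp2 is shown because, within the gene span, the 10-kb stretches of loss described below lay downstream of it. The RefSeq promoter of Nrp2 (GRCm38.p6, plus strand, chr1:62703067-62703316) is printed 5′ to 3′ over the 250 bases before the gene's first base, with each CpG in capitals.

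Nrp2 promoter: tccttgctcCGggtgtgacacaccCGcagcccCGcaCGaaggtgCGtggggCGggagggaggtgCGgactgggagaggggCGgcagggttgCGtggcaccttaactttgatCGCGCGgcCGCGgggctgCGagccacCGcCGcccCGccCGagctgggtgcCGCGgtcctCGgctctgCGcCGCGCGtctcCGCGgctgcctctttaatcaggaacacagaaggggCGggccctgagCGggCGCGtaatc

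These bases hold 32 CpGs and are 72.4% G or C. At least as many CpGs were found in 4.58% of 32851 RefSeq promoters cut to the same length, whose median was 6. The hexamer GGGCGG, the core of the GC box bound by Sp1, occurred 5 times on either strand, and 32.7% of the promoters held it at least once. Extended to 50 bases past the start, the sequence had 37 CpGs, and their spacing matched 37 listed cytosines of the mm9 tables exactly. The next best position matched 14. This put the first base of Nrp2 at chr1:62749891 of mm9, inside the gene span. The capture covered this stretch thinly, so 0 of its CpGs were analysed. Over the 37 cytosines coverage was 0 to 10 reads in control (median 2) and 3 to 12 in ATO DNA (median 6). Pooled, 0 of 129 calls were methylated in control (exact 95% interval 0 to 2.82%) and 3 of 252 in ATO DNA (1.19%, interval 0.246 to 3.44%). On these few reads the start of Nrp2 was close to unmethylated in both libraries. Intervals here and below cover the counting of calls only and take each call as independent. A read can hold several of these CpGs, so the intervals at the start are narrower than the number of reads warrants. RefSeq gave no promoter entry for Zfp608.

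Across the Nrp2 span methylation averaged 48.6% in control and 37.9% in ATO DNA, a difference of -10.6 points (SD between cytosines 16.9, n = 482). Of these cytosines 319 were lower, 107 higher and 56 equal. On pooled calls the levels were 60.0% (exact 95% interval 59.4 to 60.6) and 44.5% (44.0 to 45.0). The share of cytosines at 90% or more was 24.3% in control and 9.34% in ATO DNA, while the share under 10% was 30.1% and 32.0%. The shares moved at the methylated end more than at the unmethylated end. This is partly fixed by the choice for loss, since cytosines under 10% can fall little further. Over the Zfp608 span methylation averaged 31.5% in control and 23.3% in ATO DNA, a difference of -8.17 points (SD 16.4, n = 283), with 157 cytosines lower and 61 higher. Pooled calls gave 32.0% (31.2 to 32.7) and 23.7% (23.1 to 24.4). More of the analysed DNA of Zfp608 was unmethylated, with 50.9% of cytosines under 10% in the control. For scale, the mean difference over the genome was -1.28 points (SD 11.9).

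**Figure D1:**
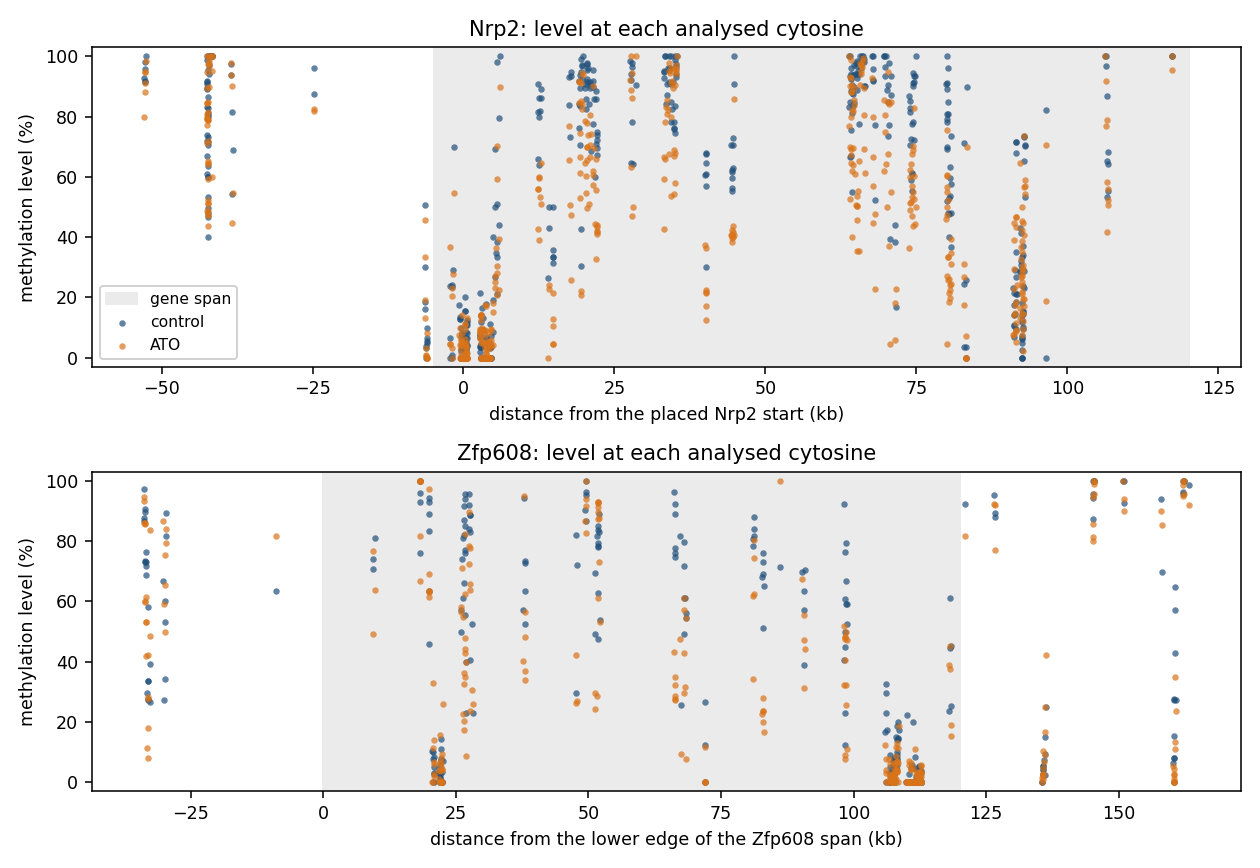
Methylation level (%) of each analysed cytosine in the control (blue) and ATO (orange) library, against distance in kb, for Nrp2 (top, from its placed start) and Zfp608 (bottom, from the lower edge of its span), with 50 kb on each side where the window reaches that far. Grey marks the gene span. Levels near 0 overlap in both libraries around the Nrp2 start and chiefly at 2 places in Zfp608, and the ATO points lie below the control points over much of the bodies.

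Both libraries had an unmethylated domain at the Nrp2 start, and it differed little between them. Low runs were taken as chains of at least 10 cytosines under 20%, with gaps of at most 2 kb, and all analysed cytosines within them. The level used was the mean of both libraries, so small differences within a run are partly fixed by construction. In the run from 62747616 to 62750540, 67 cytosines averaged 6.69% in control and 4.84% in ATO DNA. Another run, from 62752586 to 62754815, held 89 cytosines at 3.29% and 3.89%. The mean differences were -1.85 points (SD 6.35) and 0.60 points (SD 6.13). The low bin with the most cytosines, 62750001 to 62750500, had 3.90% and 2.08% over 32. By 10-kb stretch, 62740001 to 62750000 had 10.3% and 8.78% over 42 cytosines, and 62750001 to 62760000 had 8.05% and 6.56% over 137. From 5 to 10 kb past the start, 12 cytosines averaged 53.9% in control and 39.4% in ATO DNA. Loss was then spread over the next 80 kb. From 10 to 30 kb the levels were 79.1% and 59.1%, a difference of -20.1 points (SD 14.2), and 68 of 75 cytosines were lower. From 30 to 60 kb they were 81.5% and 64.3%, with 42 of 49 lower. From 60 to 90 kb they were 78.6% and 57.8%, with 107 of 123 lower. Beyond 90 kb the levels met again, at 36.3% and 36.5% over 67 cytosines, 37 of them lower.

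By 10-kb stretch, 11 of the 12 stretches overlapping the Nrp2 span held at least 5 analysed cytosines. Of these, 7 were lower in the ATO library by at least 10 points and 0 were higher by as much. Over the genome, 10.9% of 71898 such stretches were lower and 3.72% higher by that size; since Nrp2 was picked on this contrast, nothing is read from the comparison. The 7 lay side by side from 62760001 to 62840000, apart from the 10 kb after 62800000, where no cytosine was analysed. The stretch at 62790001 to 62800000 had the largest change, 65.3% in control and 38.2% in ATO DNA (SD of the differences 13.8), with 15 of 15 cytosines lower. The stretch at 62810001 to 62820000 was the most methylated of the 7 in control, at 91.0% and 73.0% over 60 cytosines, 53 of them lower. At 62820001 to 62830000 the levels were 77.5% and 54.0% over 39 cytosines. At 62830001 to 62840000 they were 49.3% and 26.0% over 24. At the near end of the body, 62760001 to 62770000 had 73.3% and 52.6%, and 62770001 to 62780000 had 84.9% and 65.3%. The smallest of the 7 differences was -12.8 points, at 62780001 to 62790000. Each of these stretches had median coverages of 41.5 reads or more in both libraries, and the SD between cytosines was 12.9 to 20.1 points.

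The stretch just beyond the lost part, 62840001 to 62850000, differed little. Its 56 cytosines averaged 27.6% in control and 29.4% in ATO DNA, with 28 lower and 28 higher. On pooled calls the direction was the opposite, at 30.1% and 28.1%. This stretch held another low run, 62840959 to 62842583, at 21.8% and 25.6% over 46 cytosines, of which 22 were under 20%. The bin with the largest gain around Nrp2, 62842001 to 62842500, lay in it, with 17.2% in control and 28.6% in ATO DNA over 22 cytosines (SD of the differences 17.2), 15 of them higher. The next gains of bins were at 62747501 to 62748000 (9.23% and 11.6%, 6 cytosines) and 62752501 to 62753000 (4.98% and 6.14%, 26 cytosines). The remaining stretch with enough cytosines, 62850001 to 62860000, had 76.7% and 67.4% over 9. At 62860001 to 62870000 only 2 cytosines were analysed, at 100% and 97.7%.

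**Figure D2:**
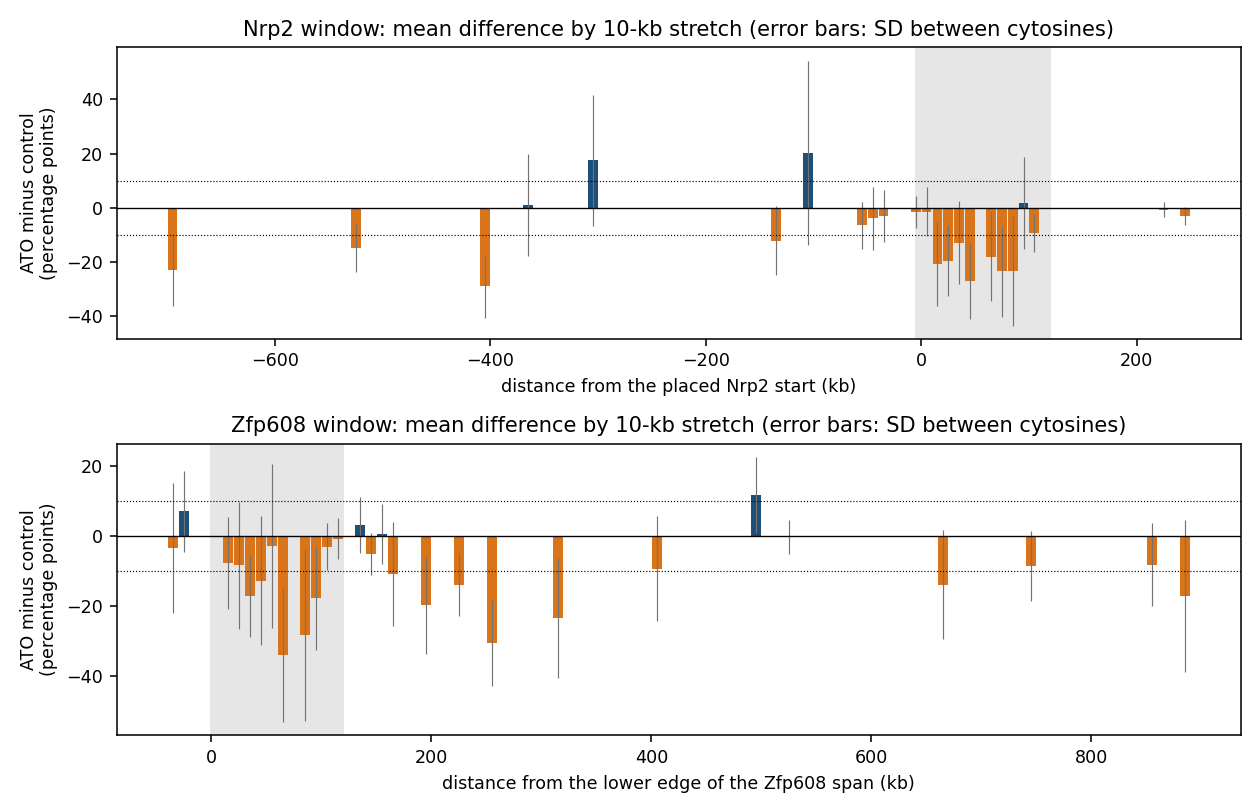
Mean difference in methylation, ATO minus control in percentage points, for each 10-kb stretch with at least 5 analysed cytosines, against distance in kb across the Nrp2 (top) and Zfp608 (bottom) windows. Grey marks the gene span, dotted lines mark 10 points, and error bars are the SD between cytosines. Stretches past -10 points number 7 inside Nrp2 and 4 elsewhere in its window, and 5 inside Zfp608 and 7 elsewhere in its window.

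Windows of 500 bp that held 5 or more analysed cytosines, called bins, placed the largest Nrp2 losses. At 62815001 to 62815500 methylation stood at 92.2% in control and 48.7% in ATO DNA (7 of 7 cytosines lower, SD of the differences 7.66, median coverages 121 and 160 reads). Pooled calls there gave 94.0% (exact 95% interval 92.0 to 95.6) and 49.3% (46.1 to 52.6). A pair of adjoining bins followed, 62830001 to 62830500 with 62.66% and 29.98%, and 62829501 to 62830000 with 84.8% and 52.3%. In these, 10 of 10 and 8 of 8 cytosines were lower. The remaining ones were 62772001 to 62772500 (71.7% and 42.5%) and 62783001 to 62783500 (94.4% and 66.1%). Among single cytosines of the span with at least 20 reads in both libraries, the one with the largest loss, 62830063, had 17 of 20 methylated calls in control and 10 of 39 in ATO DNA. At 62815076 the calls were 102 of 115 and 57 of 161, and at 62815098 they were 114 of 121 and 72 of 158. At 62823723, outside the named bins, they were 20 of 23 and 12 of 33, and at 62783099 they were 38 of 41 and 15 of 35. The longest series of lower cytosines among those analysed in the window, 34 in a row, ran from 62824206 to 62830606. It averaged 75.03% in control and 43.8% in ATO DNA (SD of the differences 13.8), with no cytosine analysed between 62824754 and 62829848. The largest gains among such cytosines of the span were smaller. At 62841038, 7 of 40 calls were methylated in control and 26 of 58 in ATO DNA, and at 62842368 the calls were 0 of 36 and 10 of 37. At 62842360 they were 2 of 31 and 10 of 34.

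Zfp608 had a pair of unmethylated domains. The larger, from 55145967 to 55152753 near the upper edge of the span, held 126 cytosines at 3.74% in control and 2.26% in ATO DNA (difference -1.48 points, SD 5.66). At its lower edge the bin 55146001 to 55146500, named after its values were seen, had 20.6% and 2.94%. Of its 5 cytosines 4 were lower and 0 higher. The smaller, from 55060409 to 55062574, held 35 cytosines at 3.53% and 4.88%, and in it 55062001 to 55062500 was the low bin with the most cytosines (2.72% and 3.00%, 20 cytosines). Between and around them, 10 of the 13 stretches overlapping the span had at least 5 analysed cytosines, and in each of these 10 the mean was lower in the ATO library. In 5 the loss was at least 10 points, and in 0 was there a gain of that size. The genome shares are the 10.9% and 3.72% given for Nrp2, and again nothing is read from them. The stretch at 55100001 to 55110000 had the largest change, 69.8% in control and 35.7% in ATO DNA (SD 19.1), with 14 of 15 cytosines lower. The next were 55120001 to 55130000 (73.9% and 45.7%, 12 cytosines) and 55130001 to 55140000 (56.6% and 38.8%, 18 cytosines). Fewer cytosines lay behind 55070001 to 55080000 (69.0% and 51.9%, 6 cytosines) and 55080001 to 55090000 (81.6% and 68.9%, 8 cytosines). The stretch between, 55090001 to 55100000, averaged 72.4% and 69.6%, with 5 cytosines lower and 8 higher. Its small mean difference combined large changes in both directions (SD 23.5), such as 25 of 36 and 13 of 44 calls at 55091171 against 17 of 27 and 21 of 24 at 55091769. The other stretches of the span with at least 5 analysed cytosines differed by less than 10 points. At 55050001 to 55060000 the levels were 89.8% and 82.1%, and at 55060001 to 55070000 they were 32.5% and 24.1%. The unmethylated end of the span had 6.50% and 3.39% at 55140001 to 55150000, and 4.11% and 3.35% at 55150001 to 55160000. With fewer cytosines, 55040001 to 55050000 had 75.3% and 63.2% over 3, and 55110001 to 55120000 had 9.79% and 2.94% over 4. The 1 cytosine analysed at 55030001 to 55040000, with 63.6% and 81.8%, lay in the flank below the span.

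Among bins of the spans and flanks, the one with the largest loss was in Zfp608, at 55106001 to 55106500, with 84.3% in control and 32.4% in ATO DNA. All 6 of its cytosines were lower (SD of the differences 9.33, median coverages 74.5 and 80 reads), and pooled calls gave 85.1% (exact 95% interval 81.4 to 88.3) and 32.6% (28.4 to 37.1). The bin at 55122501 to 55123000 had 67.5% and 23.5%, and 55066501 to 55067000 had 71.5% and 39.7%. Next came 55138501 to 55139000 with 63.4% and 33.3%, and a flank bin, 55200501 to 55201000, with 37.5% and 12.8%. Among single cytosines, 55106322 had 71 of 77 methylated calls in control and 24 of 87 in ATO DNA. At 55066553 they were 41 of 50 and 14 of 69, at 55106327 64 of 72 and 22 of 77, and at 55066581 66 of 72 and 30 of 83. At 55066482 they were 47 of 54 and 19 of 58. The largest gains of the span among cytosines with at least 20 reads were at 55091769 (17 of 27 and 21 of 24), 55060600 (6 of 59 and 21 of 64) and 55062574 (2 of 29 and 6 of 23). A larger gain lay in the flank at 55007233, with 13 of 33 and 31 of 37, and is named after its values were seen. The bins with the largest gains were 55010001 to 55010500 in the flank (63.7% and 70.8%), 55060501 to 55061000 (4.63% and 9.47%) and 55091501 to 55092000 (76.9% and 79.7%).

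Loss was also present outside both genes. Around Nrp2 the flank, all of it below the gene, had 70.1% in control and 66.4% in ATO DNA, a difference of -3.72 points (SD 9.73, n = 62). No cytosine of the flank above Nrp2 was analysed. The rest of the Nrp2 window differed by -6.46 points (61.0% and 54.5%, SD 20.6, n = 72). It had 52 of 72 cytosines lower (72.2%), 9.72% called lower by the per-cytosine test described below (1.73% in the genome, with nothing read from it), and 4 of 9 stretches lower by at least 10 points, with 2 higher. The largest loss of a stretch there, larger than any in the Nrp2 span, was at 62340001 to 62350000 (82.4% and 53.4%, 5 cytosines) and the largest gain at 62640001 to 62650000 (44.1% and 64.3%, 5 cytosines, SD 34.1). Around Zfp608 the flank differed by -3.07 points (56.0% and 52.9%, SD 14.4, n = 75), but the rest of the window differed by -13.9 points (60.8% and 46.9%, SD 17.8, n = 191), a larger unweighted mean loss than in the span. There 142 of 191 cytosines (74.3%) and 6 of 11 stretches were lower, with 1 stretch higher, and 18.3% of cytosines were called lower. The difference between the loci in this was not tested. Among cytosines between 20 and 80% alone the mean difference of the Zfp608 span was 2.73 points below that of the rest. Above Zfp608, from 55237413 to 55355989, 55 analysed cytosines in a row were lower in the ATO library, at 65.1% and 39.4% (SD of the differences 14.0). They lay in separate groups, such as 55266303 to 55267420 and 55293256 to 55294399, with no cytosine analysed between these, so loss was not measured throughout. This series includes the stretch at 55290001 to 55300000, with 56.4% and 25.8% and 25 of 25 cytosines lower. The largest gain outside the Zfp608 span was at 55530001 to 55540000 (62.9% and 74.7%, 9 cytosines).

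The edges of the spans were fixed by the choice of members, and the analysed cytosines nearest to them are given once, with no test. The outermost analysed cytosines of Nrp2 were at 62747616 (0 of 18 methylated calls in control and 1 of 22 in ATO DNA) and 62867271 (14 of 14 and 19 of 19). The nearest analysed outside were 62743903 (1 of 20 and 0 of 31) and 62976136 (14 of 40 and 13 of 40). The latter lay beyond the upper flank, in which no cytosine was analysed, so the DNA bordering that end was not measured. For Zfp608 the outermost were at 55049316 (23 of 31 and 23 of 30) and 55158386 (42 of 93 and 17 of 89). The nearest analysed outside were 55031057 (7 of 11 and 9 of 11) and 55160960 (12 of 13 and 9 of 11), both in the flank.

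Because unmethylated DNA dilutes a mean over a span, cytosines with a mean level of both libraries of at least 20% were also described alone. In Nrp2 there were 301, at 74.9% in control and 57.7% in ATO DNA, with a median difference of -16.8 points. In Zfp608 there were 116, at 70.9% and 52.8%, with a median of -16.5 points. The middle 50% of the differences ran from -29.0 to -4.10 points in Nrp2 and from -34.3 to -1.70 points in Zfp608. Over the genome the median was -1.36 points, with the middle 50% from -10.5 to 5.46 points. Losses of 20 points or more occurred at 137 of the 301 Nrp2 cytosines (45.5%) and 48 of the 116 of Zfp608 (41.4%), and gains of that size at 6 and 3 (1.99% and 2.59%). In the genome the shares were 11.7% and 6.64%. The medians were -3.43 and -4.01 points in the flanks of Nrp2 and Zfp608, and -7.35 and -13.0 points in the rest of the windows.

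**Figure D3:**
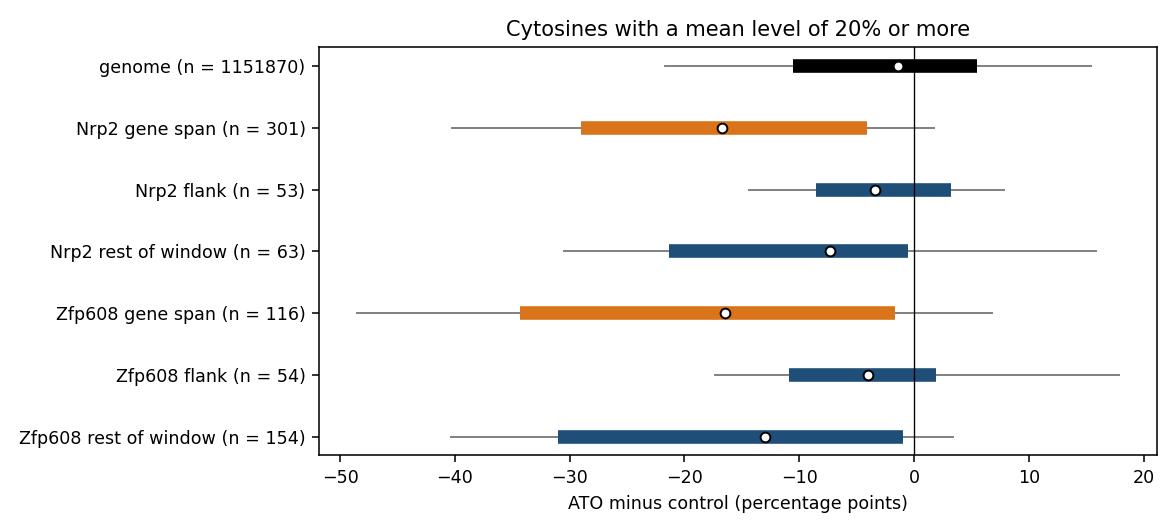
Differences in methylation (ATO minus control, percentage points) at cytosines with a mean level of 20% or more. Circles are medians, thick bars the middle 50% and thin lines the range from the 10th to the 90th percentile. The medians of both gene spans and of the rest of the Zfp608 window lie at -13.0 points or below, and those of the flanks at -3.43 and -4.01 points.

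Differences are also given by level of methylation. Classes were formed on the mean of both libraries, which contains the change: a cytosine under 10% or at 90% and over can differ by at most 20 points, and one that loses much falls in the class of 20 to 80%. Differences between classes are therefore partly fixed by construction, and each class is set only against the same class of the genome. Cytosines under 10% differed by 0.08 points in Nrp2 (n = 150) and by -0.26 points in Zfp608 (n = 148). Cytosines between 20 and 80% went from 65.3% to 43.9% in Nrp2, a difference of -21.4 points (SD 18.4, n = 203, 178 lower). In Zfp608 they went from 65.4% to 42.2%, a difference of -23.1 points (SD 20.5, n = 90, 77 lower). The genome value of this class was -3.76 points (SD 19.5). Between 80 and 90% Nrp2 differed by -13.9 points (SD 12.1, n = 46) and Zfp608 by -1.40 points (SD 14.5, n = 16). The genome values were 0.02 points under 10% and -1.86 points from 80 to 90%. At 90% and over Nrp2 differed by -3.63 points (SD 5.53, n = 52) and Zfp608 by 0.74 points (SD 3.90, n = 10), against -0.53 points in the genome. Zfp608 had few cytosines in these classes, and a difference between the loci was not tested.

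**Figure D4:**
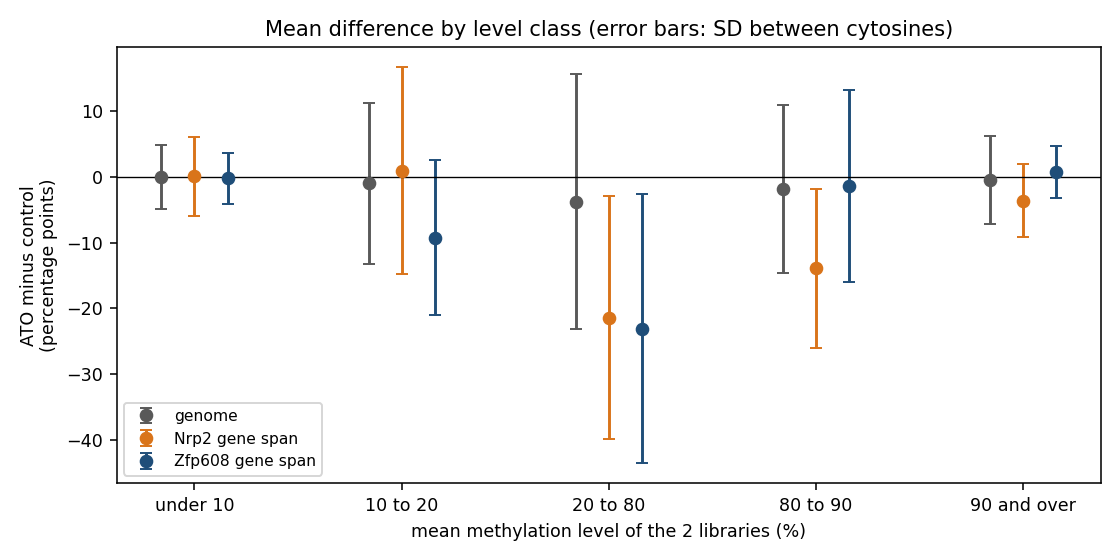
Mean difference in methylation (ATO minus control, percentage points) by class of mean level, for all analysed cytosines of the genome, the Nrp2 span and the Zfp608 span. Error bars are the SD between cytosines. In the class of 20 to 80% both spans lie at -21.4 and -23.1 points and the genome at -3.76 points. The classes limit the size of the difference at both ends.

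At single cytosines a call needed a Benjamini-Hochberg adjusted p under 0.05 by a two-sided Fisher's exact test over all 2312276 cytosines and a difference of at least 25 points. In the Nrp2 span 78 cytosines of 482 were called lower and 1 higher (16.2% and 0.207%). In the Zfp608 span 29 of 283 were called lower (10.2%) and 0 higher. Over the genome 1.73% were called lower and 0.916% higher. The low runs at the Nrp2 start held 0 of these calls, and the larger one of Zfp608 held 2. Cytosines with a mean level under 10% can differ by at most 20 points and could not be called. The few calls in low runs are therefore largely fixed by construction. Unadjusted p under 0.05 was reached by 186 and 63 cytosines of the spans (38.6% and 22.3%), against 12.8% in the genome. Because the loci were chosen for loss, these counts are a description and support nothing further. With counts divided by the dispersion measured between the strands of a CpG, 2.77, the lower calls dropped to 9 in Nrp2 and 4 in Zfp608, against 993 in the genome.

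Neighbouring cytosines of the spans differed alike. Among cytosines with a mean level of at least 20%, the differences of pairs within 50 bp correlated at a Pearson r of 0.62 in Nrp2 (236 pairs) and 0.82 in Zfp608 (88 pairs). At 51 to 200 bp r was 0.43 and 0.37, and beyond 200 and up to 1000 bp it was 0.12 and -0.13. Pairs share libraries, fragments and cytosines, so these values are a description. The likeness was highest between the nearest cytosines.

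Median coverages were 48.5 reads in control and 59.5 in ATO DNA over the Nrp2 span, and 46 in each over the Zfp608 span, against 41 and 44 over the genome. All analysed cytosines of both spans lay on the reverse strand, as did 95.2% of those in the genome, so no check between strands was possible there. In the Nrp2 flank the reverse strand held 58.1%.

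Cytosines read in both libraries but with fewer than 10 reads in at least 1 of them fell below the coverage minimum, so their calls entered none of the values above other than those at the Nrp2 start. They come from the same libraries. In the Nrp2 span 282 such cytosines had 411 of 1041 methylated calls in control (39.5%, exact 95% interval 36.5 to 42.5) and 410 of 1426 in ATO DNA (28.8%, 26.4 to 31.2). In the Zfp608 span 123 had 245 of 615 (39.8%, 35.9 to 43.8) and 189 of 628 (30.1%, 26.5 to 33.9). The differences of -10.7 and -9.74 points compare with -2.03 points for 1614873 shallow cytosines of the genome. Many of these cytosines share fragments with analysed ones. Those over 500 bp from any analysed cytosine of the span numbered 26 in Nrp2, with 85.7% (76.4 to 92.4) and 68.8% (57.4 to 78.7), and 20 in Zfp608, with 67.5% (50.9 to 81.4) and 42.2% (31.4 to 53.5). In each of these sets the ATO library was lower. Shallow cytosines were lower outside the spans too, by -3.31 points in the Nrp2 flank, -7.33 in the rest of its window and -6.76 in the Zfp608 flank. The rest of the Zfp608 window had 68.9% and 65.5% at 251 shallow ones, a difference of -3.40 points. That is smaller than at the analysed cytosines of the same part, whose pooled calls gave 58.8% and 45.8%, and the reason was not tested.

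Genes that work with neuropilin 2 were examined at their RefSeq promoters, placed in mm9 by CpG spacing as for Nrp2. Of 28 listed ligands, co-receptors and effectors, 20 had an entry and 14 a placed promoter with at least 5 analysed cytosines. One, Sema3g, a class 3 semaphorin known from endothelial cells, was lower by at least 10 points, and 0 were higher. Over 10841 placed promoters 0.83% were lower and 0.452% higher by that size. Of these promoters 10123 were under 10% in both libraries, and a promoter under 10% in control cannot fall by 10 points. The Sema3g promoter had 37.6% in control and 18.3% in ATO DNA over 8 cytosines (SD of the differences 13.9, median coverages 30.5 and 33 reads). Its 8 CpGs were all matched, the next best position matched 5, and 44 of 44 placed promoters within 2 Mb had the same shift between builds. The other 13 were under 10% in both libraries, so a loss of 10 points was not possible in them. Among them the ligand gene Vegfa had 4.05% and 6.87%, and the growth factor receptor gene Flt4 had 0.794% and 2.21%. Placements of Sema3e and Vegfc (1 of 3 nearby promoters with the same shift), Kdr (9 of 28) and Chl1 (0 nearby) had less support from their surroundings. The co-receptor gene Plxna2 had 3.03% and 2.06%, and the adhesion gene Nrcam 2.91% and 2.74%. Effector genes were low too, with 1.40% and 1.91% at the kinase gene Fyn and 1.82% and 1.54% at Farp2. The median difference of the 14 was 0.63 points. Sema3a, Sema3d and Plxnd1 were not placed, and Nrp1, Sema3c and L1cam had fewer than 5 analysed cytosines. Sema3b, Sema3f, Plxna1, Plxna4, Dpysl2, Dpysl3, Cdk5 and Rac1 are named only. Of the 4 genes listed for Zfp608, Rag1 and Rag2 were not placed, and Zfp609 and Nipbl are named only.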

How the data were processed

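Hippocampal DNA of 1 control and 1 ATO library was bisulfite sequenced after capture. Tools listed in the submitters' processing notes were Bismark 0.19.0, Bowtie2 and bcl2fastq, and the build was mm9. Trimming, duplicate removal and filters: not given in the sources used here. Per the file headers, the deposited coverage is a raw count of C and T calls at a cytosine, and C and T were deposited as a percent of it. The tables held 135987272 control calls and 147924810 ATO calls. Coverage multiplied by percent C gave the methylated count, whole within the rounding of the percent at 100% of cytosines. If duplicates were kept, reads are not independent molecules.

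Means weight cytosines alike. Intervals are exact binomial (Clopper-Pearson, 95%). Fisher's exact test ran over all cytosines with at least 10 reads in both libraries. It was tried on simulated binomial calls, which lack the dispersion of 2.77 between strands, so that trial cannot show the effect of the dispersion on the calls. Fisher's test compares 2 libraries, not the conditions. Python 3.11.15, NumPy 2.4.6 and SciPy 1.17.1 were used. A RefSeq promoter (GRCm38.p6) was placed where at least 6 of its CpGs and 70% of them matched listed positions within 4 Mb, with 1.5 times the matches of the next best place and at most 20% more listed sites. These limits were set after the files were seen.

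Every stretch of a span that held analysed cytosines was described, with the 5 bins of largest loss and 3 of largest gain per locus. The single cytosines of largest change with at least 20 reads and listed genes past 10 points were also described. Members and lists were chosen with earlier results of these data known. Coverage minimums, weighting, strands, span and stretch sizes, thresholds and division by a dispersion were varied.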

Additional observations from a re-analysis of the deposited data

How the results depend on the processing

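The mean difference of each span stayed negative under the 8 alternatives that could move it. Keeping the reverse strand alone could not, since all analysed cytosines of the spans lie on it. In Nrp2, -10.6 points became -12.5 and -12.0 at coverage minimums of 20 and 30, -15.6 with the span shortened by 10 kb at each end, -15.5 with each call weighted alike and -21.4 at cytosines of 20 to 80% alone. In Zfp608, -8.17 points became -9.78 at a minimum of 30, -10.8 with the shortened span and -23.1 at 20 to 80%, a class that holds the large changes by construction. Shortening removes unmethylated DNA by construction. The Nrp2 span minus the rest of its window, -4.19 points, became -13.3 at 20 to 80%, -8.49 with calls weighted alike and -2.40 with a flank of 100 kb. For Zfp608 this value, 5.72 points, reversed to -2.73 at 20 to 80% and was 3.61 with a flank of 20 kb. Lower calls dropped from 78 to 42 in Nrp2 at 35 points, and from 78 and 29 to 9 and 4 after dividing counts by the dispersion measured between strands. Genome calls, 40035 lower and 21190 higher, became 25712 lower at an adjusted p under 0.01, 19618 lower and 10714 higher at 35 points, and 993 lower and 922 higher after the division, which lowers the effective read number. Lower stretches of the Nrp2 span, 7 of 11, were 12 of 18 at 5 kb and 4 of 6 at 20 kb. Those of Zfp608, 5 of 10, were 2 of 6 at 20 kb and 3 of 8 with at least 10 cytosines. The genome share of lower stretches was 25.7% at 5 points and 4.73% at 15. A stricter limit on the difference or the adjusted p can only lower a count, and a looser one can only raise it. For the other moves where no construction is named, the cause was not tested. The other 91 of 117 values, some of which repeat the main value, moved by less than the combined counting interval of both libraries (means) or by at most 1.5 times (counts and shares). No paired analysis was possible because each group has 1 library. A coverage minimum of 30 left 66 and 26 lower calls in the Nrp2 and Zfp608 spans. With 1 library per group no result speaks of the exposure.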

Other observations

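Outside the gene spans, 12 stretches in the rest of the Zfp608 window and 3 in that of Nrp2 had fewer than the 5 analysed cytosines needed for the counts above and were not among them. Those with a difference over 10 points are named here, after their values were seen. At 55940001 to 55950000, 3 cytosines averaged 77.0% in control and 22.2% in ATO DNA, and at 55790001 to 55800000, 4 averaged 47.3% and 14.1%, with all of them lower. Median coverages in these were 15 and 30 reads, and 14 and 41 reads. At 55550001 to 55560000, 2 cytosines were higher, at 59.0% and 75.5%. In the Nrp2 window, 3 cytosines at 62420001 to 62430000 were lower, at 90.9% and 74.7%, and 2 cytosines at 62460001 to 62470000 were higher, at 52.4% and 72.3%.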
